A study of Homo sapiens with 52 samples.

Results

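Knockdown of PDCD10, also called CCM3, was measured by RNA-seq in TeloHAEC, human aortic endothelial cells immortalised with telomerase, with 2 guide RNAs that left different amounts of PDCD10 RNA. Guide D11 left 12.9% of the control level and guide G1 left 40.9%, so the pair is read here as a strong and a partial knockdown of the same gene. The members were taken by their labels: the 2 libraries carrying a PDCD10 guide, beside the 4 libraries carrying the non-targeting guides B6, D2, D8 and F4, which makes 6 of the 52 libraries of the study. All 6, controls included, came from the CRISPRi TeloHAEC line, which holds a doxycycline-inducible dCas9-KRAB repressor with a BFP tag and the rtTA activator, was sorted for BFP, received its guide by lentivirus with blasticidin selection, and was kept in normal growth medium with 2 µg/ml doxycycline for 5 days. The 2 libraries with CCM2 guides (C2 and F6) of the same line were used for 1 comparison. There was 1 library for each guide. Nothing in the labels places the libraries in separate cultures, and the p-values therefore cover the spread among the libraries and no more.

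PDCD10 is a small adaptor protein that belongs to a pair of assemblies. In the cerebral cavernous malformation (CCM) complex it binds CCM2, which binds KRIT1, and KRIT1 is held at the junctional membrane by the receptor HEG1; loss-of-function mutations in PDCD10, CCM2 or KRIT1 cause clusters of dilated, leaky brain vessels. CCM2 also binds the kinase MEKK3 (gene MAP3K3), and when the complex is lost MEKK3 drives MEK5 (MAP2K5) and ERK5 (MAPK7), MEF2 factors become active, and transcription of KLF2 and KLF4, the factors normally induced by blood flow, goes up. In the STRIPAK phosphatase assembly PDCD10 instead binds the germinal centre kinases STK24, STK25 and STK26, a role that CCM2 does not share.

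The guides are shown because the results turn on how much PDCD10 each one left. Guide D11 has 20 bases and guide G1 has 21. The first base of each was left out of the search, and all the others matched PDCD10. In the target lines the capitals mark the adjacent motif (PAM) that Cas9 needs.
D11 guide: gaccgagcagaagaggtcta
D11 target: accgagcagaagaggtctaGGG
G1 guide: gccgctttacgccactcgcgt
G1 target: ccgctttacgccactcgcgtAGG
The D11 target was found in GENCODE 29 transcripts at chr3:167734747-167734765 (GRCh38, minus strand), in exon 1 of PDCD10-201, 61 bases after the start of that transcript. The G1 target was found in the RefSeq promoter window of PDCD10 at chr3:167734625-167734644 (GRCh38.p14, plus strand), 102 bases from the D11 target. Both lie inside the gene as GENCODE draws it (chr3:167683298-167734939, minus strand), D11 at 174 and G1 at 295 bases after its outermost start. Of the 18 annotated transcripts, the D11 target is exonic in 2, intronic in 8 and upstream of the start of 8, and the G1 target is exonic in 1, intronic in 9 and upstream of the start of 8. The D11 target is annotated as untranslated sequence in 1 transcript, and neither target is in coding sequence. The serpin gene SERPINI1 starts 303 bases beyond PDCD10 on the other strand.

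Values were TPM, the share of transcripts of each gene scaled to a fixed total. They hold no read counts, and library depth is not known from them. The 6 libraries had 12299 to 12571 gene symbols at 1 TPM or more, and 2.71% to 4.30% of their TPM came from mitochondrially encoded genes. The endothelial genes CDH5 (VE-cadherin) and PECAM1 ranged from 255 to 378 and from 448 to 761 TPM over the 6 libraries. Other endothelial genes moved in both directions with D11, as given below. The epithelial markers EPCAM and CDH1 and the leukocyte marker PTPRC stayed under 1 TPM, but their full lists did not. The 10 epithelial markers summed to 1210 to 1395 TPM in the controls and 6820 TPM with D11. The 8 leukocyte markers summed to 47.4 to 60.2 TPM in the controls and 218 TPM with D11.

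PDCD10 stood at 38.1, 37.7, 38.2 and 34.9 TPM in the non-targeting libraries, at 15.2 TPM with G1 and at 4.81 TPM with D11. Neither guide overlapped the controls, and the 2 guides were well apart from each other. On the log2(TPM + 1) scale PDCD10 fell by 2.72 ± 0.16 (SE) with D11 (limma, Benjamini-Hochberg adjusted p = 9.98e-09) and by 1.24 ± 0.16 with G1 (adjusted p = 0.00307), and D11 lay 1.48 below G1 (adjusted p = 0.000395). Each guide has 1 library, whose spread is assumed to be that of the other groups. Of the genes beside PDCD10, SERPINI1 was low everywhere, at 0.496 to 2.76 TPM in the controls, 0.310 with G1 and 0.0840 with D11 (adjusted p = 0.0514 for D11), and GOLIM4 was at 42.2 to 47.4, 38.0 and 48.7 TPM. SERPINI1 lies on the side of the guides, and its D11 call changed with the setting: its adjusted p was 0.00666 with a pseudocount of 0.1, and 0.0153 and 0.0348 without the controls D2 and D8.

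Across the 14143 genes in the fit, 2882 genes differed between D11 and the non-targeting libraries at an adjusted p under 0.05, which is 20.4% of them; 1028 rose (7.27%) and 1854 fell (13.1%). Among the called genes 463 rose and 532 fell by at least 1 log2 unit. The counts of list members called with D11, given below, are to be read beside the 20.4%, 7.27% and 13.1% of all genes. All lists were written with earlier results of these data known. The median of all genes lay 0.13 log2 units below the controls with D11 (a log2 difference of -0.13), so small falls are to be read against that shift: after rescaling by the median of ratios 1580 genes rose and 1221 fell. With G1 the same test called 9 genes (0.0636%), 8 higher and 1 lower, and 1100 genes had an unadjusted p under 0.05. D11 and G1 themselves differed at 1000 genes (7.07%), of which 466 were higher (3.29%) and 534 lower (3.78%) with D11. The average over both guides fits D11 and G1 as replicates, although they left different amounts of PDCD10, so it describes neither level. It called 996 genes (7.04%). Without 1 non-targeting library the count was 417 to 726 (417 without D8, 522 without B6 and 545 without D2).

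Of the 10 members of the CCM complex list, all in the fit, 4 rose with D11 and only PDCD10 fell, with a median log2 difference of 0.42 against -0.13 for all genes. HEG1, the membrane receptor of the complex, was at 25.1, 22.2, 23.9 and 24.0 TPM in the controls, 38.1 TPM with G1 and 96.1 TPM with D11. It was lowest in the controls, higher with G1 and highest with D11, 4.03-fold the control mean (log2 difference 1.97 ± 0.20, adjusted p = 3.81e-06). TLNRD1, which binds CCM2, rose from 34.3 to 38.5 TPM in the controls to 80.3 TPM with D11 (adjusted p = 0.0018), and ITGB1BP1, the integrin-binding partner of KRIT1, from 62.5 to 70.7 TPM to 124 TPM (adjusted p = 0.000103). RAP1B, a small GTPase that brings KRIT1 to the junction, also rose (log2 difference 0.56, adjusted p = 0.00571).

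The genes of the other core proteins, CCM2 and KRIT1, were not called with D11. CCM2 was at 56.4 to 61.8 TPM in the controls, 62.6 TPM with G1 and 89.6 TPM with D11, outside the control range (log2 difference 0.60 ± 0.31, adjusted p = 0.195). The shared spread for CCM2 includes the libraries in which CCM2 itself was targeted, and in a fit of only the compared groups the adjusted p was 0.00911. KRIT1 was at 15.7 to 20.0 TPM in the controls, 19.7 with D11 and 11.8 with G1, and D11 lay 0.69 log2 units above G1 (adjusted p = 0.0432). 

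The fit held 16 of the 17 STRIPAK and germinal centre kinase genes, and 2 rose with D11, or 12.5% called against 20.4% of all genes. STK25 was at 248 to 264 TPM in the controls, 278 TPM with G1 and 314 TPM with D11 (log2 difference 0.31 ± 0.10, adjusted p = 0.0396), a call that was lost without B6, D2 or F4 (adjusted p = 0.0629 to 0.0677) and with no filter (0.0502). With quantile normalisation the STK25 difference was 0.18 (adjusted p = 0.254). PPP2CB, a catalytic subunit of protein phosphatase 2A, rose by 0.38 (adjusted p = 0.00709). STK24 was at 79.6 to 84.9, 92.1 and 95.7 TPM (adjusted p = 0.264), and STK26 is listed at 0 in all 6 libraries. A gene listed at 0 in every library, here and in other lists, may be a failed estimate and is not read as absent.

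In the MEKK3 cascade 1 of 7 genes passed with D11, or 14.3% called against 20.4% of all genes. MAPK7, which encodes ERK5, was at 23.5, 20.9, 21.0 and 19.3 TPM in the controls and 21.3 TPM with G1, and at 69.1 TPM with D11. The G1 value lay inside the control range and the D11 value was 3.26-fold the control mean (log2 difference 1.66 ± 0.18, adjusted p = 5.01e-06); D11 was also above G1 (adjusted p = 0.000298). MAP3K3, the gene of MEKK3, was at 69.9 to 76.4 TPM in the controls, 62.7 with G1 and 52.0 with D11, below every control with either guide (adjusted p = 0.355 for D11, and 0.0107 in a fit of only the compared groups). MAP2K5 stood at 19 to 27.7 TPM in the controls, 29.2 with G1 and 19 with D11.

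Of the 17 KLF2- and KLF4-linked genes in the fit, 11 rose with D11 and 1 fell. Their median log2 difference was 1.62, and 7.27% of all genes rose. The list was written with earlier results of these data known, so this count is a description and no independent support. NPPB, GJA4 and TIMP3, also on the list, are listed at 0 in all 6 libraries, which may be failed estimates. KLF2 was at 123, 107, 108 and 91.3 TPM in the controls, 221 TPM with G1 and 754 TPM with D11. KLF4 was at 10.5, 9.06, 8.41 and 7.07 TPM in the controls, 25.3 with G1 and 117 with D11. For each factor the 2 guides stood outside the control range, in the order of the PDCD10 left, but neither factor was called with G1. The shared spread behind each test of KLF2 includes the libraries in which KLF2 itself was targeted. The SE of the KLF2 difference with D11 was 0.62, against a median SE of 0.20 over all genes. How much of it those libraries add was not tested. With D11 the log2 difference was 2.81 ± 0.62 for KLF2 (adjusted p = 0.00353) and 3.61 ± 0.29 for KLF4 (adjusted p = 3.31e-07). With G1 it was 1.04 for KLF2 (adjusted p = 0.715) and 1.44 for KLF4 (adjusted p = 0.0971).

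PI16, a peptidase inhibitor known to be raised by laminar flow in endothelium, had the largest difference of all called genes that met the naming rule. It was at 3.12, 2.17, 1.08 and 1.56 TPM in the controls, 57.7 TPM with G1 and 630 TPM with D11. That is 29.1-fold and 318-fold the control mean, with log2 differences of 4.35 ± 0.40 (adjusted p = 3.35e-05) and 7.77 ± 0.40 (adjusted p = 2.6e-09), and D11 stood above G1 (adjusted p = 0.000559). THBD, thrombomodulin, the anticoagulant receptor for thrombin, was at 90.0, 85.2, 89.3 and 82.9 TPM in the controls, 172 TPM with G1 and 489 TPM with D11 (log2 difference 2.48 ± 0.45 for D11, adjusted p = 0.000771). THBD with G1 was outside the control range and 1.97-fold the control mean, without passing the test across all genes (adjusted p = 0.632).

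NOS3, endothelial nitric oxide synthase, was at 119 to 128 TPM in the controls, 145 TPM with G1 and 381 TPM with D11, so that most of the difference appeared between the 2 guides (D11 over G1, adjusted p = 0.00521). The water channel gene AQP1 was at 6.34 to 9.23, 36.2 and 99.4 TPM, and NPPC, which encodes C-type natriuretic peptide, at 2.81 to 7.80, 20.8 and 74.2 TPM. The other members that rose with D11 were PLPP3, SLC9A3R2, PTGDS and CD59. ADM, the vasodilator adrenomedullin, went the other way, at 248, 296, 275 and 255 TPM in the controls, 201 TPM with G1 and 28.1 TPM with D11 (log2 difference -3.21 ± 0.27, adjusted p = 5.45e-07). ASS1 was at 0.627 to 1.14, 2.47 and 0.291 TPM, and S1PR1 at 198 to 211, 187 and 239 TPM, with no call for either.

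**Figure D1:**
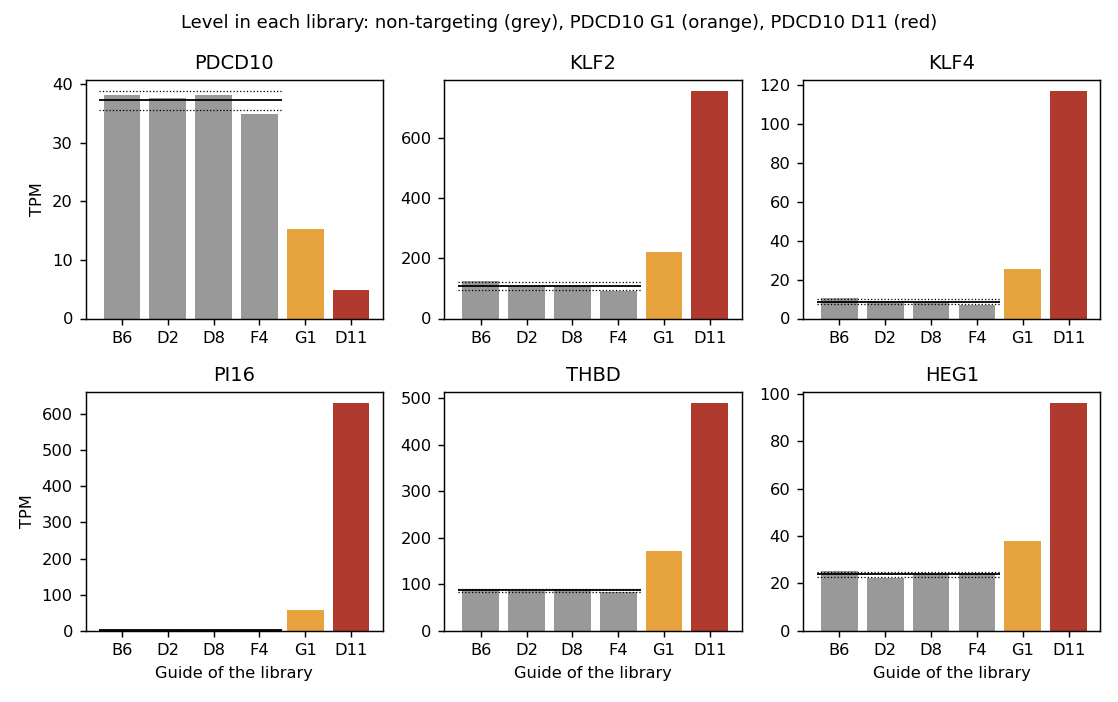
Level in TPM (linear axes from 0) of PDCD10, KLF2, KLF4, PI16, THBD and HEG1 in each library: grey bars are the 4 non-targeting guides with their mean (line) and SD (dotted lines), orange is PDCD10 guide G1 and red is D11. PDCD10 steps down to 15.2 and 4.81 TPM, and the other 5 genes step up in the same order, KLF2 to 221 and 754 TPM and PI16 to 57.7 and 630 TPM.

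MEF2 factors bind sequences with the letters CTA, then 4 bases that are each A or T, then TAG. The promoter of KLF2 is shown because it holds such a stretch. The stretch is chr19:16324681-16324740 (GRCh38.p14, plus strand, RefSeq), the motif starts 120 bases before the KLF2 start, and the capitals mark it.
KLF2 promoter: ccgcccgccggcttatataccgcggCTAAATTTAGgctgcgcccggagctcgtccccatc
The search used a looser pattern, CTA and TAG with any 4 bases between, which reads the same on either strand. It was found in the 250 bases before the start of 2.92% of 27305 gene symbols. That share can include sequences outside the MEF2 site. Of 12 genes looked up (KLF2, KLF4, NOS3, HEG1 and 8 of the 10 genes with the largest rises with D11), KLF2 was the 1 with a match. A match of letters is a description and no evidence of binding.

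After PI16, the largest rises with D11 included FCRLA and FCRLB, a pair of Fc receptor-like genes that lie 7210 bases apart on chromosome 1. FCRLA is listed at 0 in all controls, with 0.0568 TPM with G1 and 48.4 TPM with D11, and FCRLB was at 1.48, 0.993, 1.26 and 1.03 TPM in the controls, 1.25 with G1 and 103 TPM with D11. With G1 both were near the control level, FCRLB inside the control range. AQP3, another water channel gene, was at 4.09 to 9.71 TPM in the controls, 18.2 TPM with G1 and 235 TPM with D11 (log2 difference 4.97 for D11, adjusted p = 1.83e-06). PTHLH, parathyroid hormone-related protein, was at 27.0 to 38.0, 61.6 and 699 TPM. ACP5, tartrate-resistant acid phosphatase, was at 3.18 to 4.29, 14.8 and 91.9 TPM. CLEC3B (tetranectin) was at 1.78 to 3.42, 15.6 and 72.9 TPM. The matricellular gene CCN3 was at 0 to 0.115, 0.215 and 25.3 TPM and the matrix gene ABI3BP at 6.53 to 10.3, 12 and 199 TPM, so these 2, like FCRLA and FCRLB, were high with D11 and near the controls with G1.

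The largest fall by the rule was that of the read-through symbol RNASEK-C17orf49, at 16.5 to 29.6 TPM in the controls, 28.4 with G1 and 0.0730 with D11. This model overlaps both RNASEK, at 425 to 473, 501 and 571 TPM, and C17orf49, at 110 to 124, 104 and 104 TPM, so its own level depends on how reads were divided between them and is uncertain. VPS29 and ADM came next. The organic anion transporter SLCO2B1 was at 54.2 to 83.1, 52.6 and 7.34 TPM, RASSF2, a Ras-association domain gene, at 21.6 to 25.7, 13.0 and 2.15 TPM, and NEURL1B, a ubiquitin ligase that acts on Notch ligands, at 8.25 to 12.7, 5.11 and 0.297 TPM. EFCC1 was at 27.5 to 33.3, 23 and 3.36 TPM, TPBGL at 5.84 to 11.8, 5.63 and 0.227 TPM, and the T cell receptor pseudogene TRGV5P at 12 to 14.7, 7.03 and 0.895 TPM.

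With the partial guide G1 the 8 genes that rose were PI16, PTPN5, AC008763.3, NGEF, KRT18, UBR4, TPPP3 and CD9, and PDCD10 was the 1 that fell; AC008763.3, TPPP3 and CD9 were named after their values were seen. KRT18, a type I keratin, was at 895, 860, 896 and 934 TPM in the controls, 2047 TPM with G1 and 5924 TPM with D11. It was 2.28-fold the control mean with G1 (log2 difference 1.19 ± 0.16, adjusted p = 0.0034) and 6.61-fold with D11 (log2 difference 2.72 ± 0.16). Its partner KRT8 was at 100 to 127, 128 and 116 TPM; the KRT8 and KRT18 loci overlap by 1084 bases on opposite strands, so reads there cannot be told apart without strand. PTPN5, a protein tyrosine phosphatase, was at 0.656 to 0.858 TPM in the controls, 13.1 TPM with G1 and 23.1 TPM with D11 (adjusted p = 0.00101 for G1). The exchange factor gene NGEF was at 2.43 to 4.78, 16.5 and 42.6 TPM, and UBR4, a ubiquitin ligase, at 54.3 to 67.8, 121 and 418 TPM. The tetraspanin CD9 was at 941 to 1017 TPM in the controls, 1719 with G1 and 3511 with D11, and TPPP3 at 240 to 269, 478 and 849 TPM. Of the 6 libraries D11 had the highest level of each gene that rose, except AC008763.3, which is listed at 0 in the controls and with D11, and was at 4.66 TPM with G1. The named set depends on the setting. In a fit of only G1 and the controls, PDCD10 and most of the genes that rose lost the call.

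D11 exceeded G1 most at FCRLA, FCRLB, CCN3, STC1 and ABI3BP. STC1, the secreted glycoprotein stanniocalcin, was at 26.6, 34.0, 29.9 and 27.3 TPM in the controls and 21.6 TPM with G1, and at 369 TPM with D11. The G1 value was below every control, and the D11 value 17-fold the G1 value (log2 difference 4.03 on the log2(TPM + 1) scale, adjusted p = 2.3e-05). LHX6, a LIM homeobox gene, was among the 5 with the largest falls from G1 to D11, with 66.5 to 77.4 TPM in the controls, 81.9 with G1 and 12.8 with D11. Of the 17 KLF2- and KLF4-linked genes 7 were higher with D11 than with G1 and ADM was lower. KLF2 and THBD, 3.42-fold and 2.85-fold higher with D11 than with G1, did not pass that test (adjusted p = 0.205 and 0.13).

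Proportion was tested directly: the G1 difference was set against 0.455 of the D11 difference, the ratio that PDCD10 itself showed on the log2 scale. That ratio came from 1 library of each guide and was taken as fixed. The intervals below leave out its error and hold only for PDCD10 loss on the log2 scale. Above and below proportion refer to the signed difference. A gene that fell with D11 is therefore above proportion where G1 lowered it by less than its share. The test called 16 genes (0.113%), 4 with G1 above that proportion and 12 below it, and 1125 had an unadjusted p under 0.05. None of the 17 KLF2- and KLF4-linked genes was called. The deviation was -0.24 for KLF2 (95% interval -1.56 to 1.08), -0.20 for KLF4 (-0.82 to 0.42), 0.81 for PI16 (-0.04 to 1.66), -0.15 for THBD (-1.11 to 0.81) and -0.24 for HEG1 (-0.67 to 0.20). For NOS3 it was -0.51, with an interval of -0.97 to -0.04 that lies below proportion before adjustment, and an adjusted p of 0.568. A departure of KLF2 by up to 1 log2 unit was not detectable in this fit. Its spread for KLF2 includes the libraries in which KLF2 itself was targeted. Genes below proportion included FCRLA, FCRLB, STC1, CCN3 and ADAMTS4. ADAMTS4, a protease that cuts versican and aggrecan, was at 27.2, 24.7, 27.6 and 21.4 TPM in the controls, 21.6 TPM with G1 and 124 TPM with D11 (deviation -1.23, adjusted p = 0.0162). In all of these the G1 level stayed near the controls and only D11 stood apart. The other genes below proportion, named after their values were seen, were ADAM19, CD276, BAK1, GOSR2, TUBB3, FLT1 and EMP3, which rose by 0.65 to 2.42 log2 units with D11. The calls depend on the setting: 9 to 15 genes were called without 1 control (9 without D8, 10 without B6), 212 with PDCD10 loss taken on the linear scale, and 0 when only these groups were fitted, where 1 library of each guide leaves the spread to the 4 controls.

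The genes above proportion were VPS29, LXN, SLC2A1 and AC008763.3. VPS29 and LXN fell with D11 and stayed near the controls with G1, so G1 moved both by less than its share. VPS29, a subunit of the retromer that carries membrane proteins back from endosomes, was at 70.4, 87.5, 73.3 and 67.0 TPM in the controls, 76.7 TPM with G1 and 5.96 TPM with D11. D11 alone was low, 12.5-fold below the control mean (log2 difference -3.43 ± 0.12, adjusted p = 1.79e-11), while the other 23 libraries of the CRISPRi line ranged from 64.9 to 93.1 TPM. VPS26A, VPS26B and VPS35, the other retromer subunits, were at 51.6, 49.9 and 70.6 TPM with D11 and 34.5 to 41.4, 45.7 to 53.1 and 53.5 to 59.3 TPM in the controls (chosen after their values were seen). LXN, a carboxypeptidase inhibitor, was at 308 to 341 TPM in the controls, 345 TPM with G1 and 102 TPM with D11. SLC2A1, the glucose transporter GLUT1, was highest with G1, at 98.3 TPM against 55.7 to 68.5 in the controls and 46.6 with D11.

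Whether a change seen with D11 alone came with the lower PDCD10 or with that guide cannot be told apart, since each level of PDCD10 was reached with 1 guide. In the 35116 RefSeq promoter windows the best matches to the last 19 bases of D11 beside a PAM were AEN with 3 mismatches and LOC105378919 with 4. AEN stood at 34.9 to 39.1 TPM in the controls, 37.9 with G1 and 36.5 with D11. These windows do not hold D11's own target in PDCD10, so a site missing from them says nothing about other sites. Apart from the windows, the transcripts of PDCD10 were the only sequence searched.

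**Figure D2:**
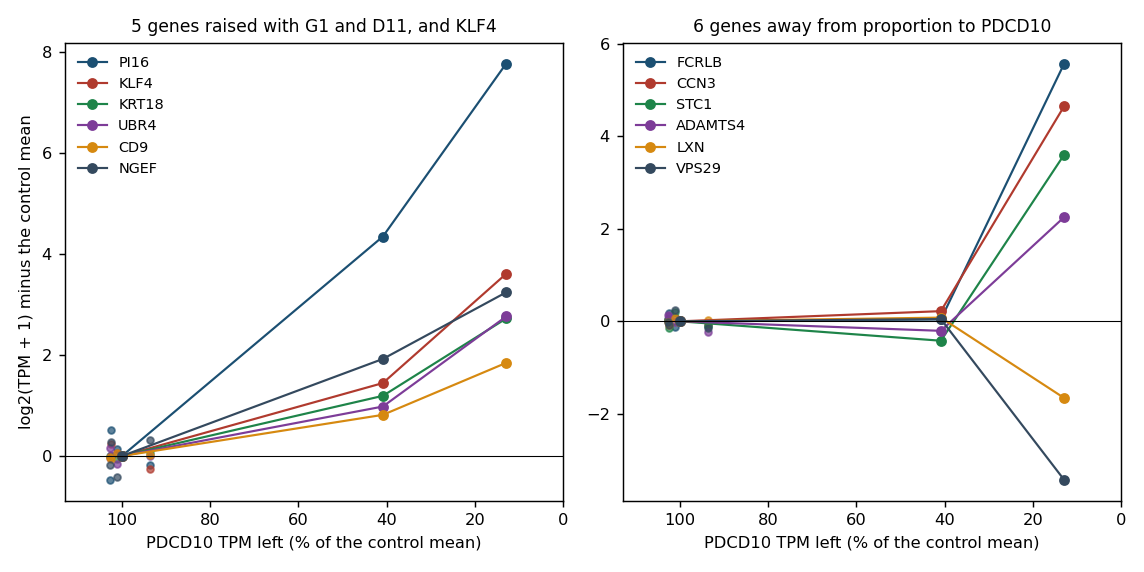
Difference from the control mean in log2(TPM + 1) against the PDCD10 TPM left in the library, as a percent of the control mean (axis running from high to low): small points are the 4 controls, joined points are the control mean, G1 (40.9%) and D11 (12.9%). On the left PI16, KLF4, KRT18, UBR4, CD9 and NGEF step up with each guide; on the right FCRLB, CCN3, STC1, ADAMTS4, LXN and VPS29 lie between -0.42 and 0.22 with G1 and move with D11.

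Coagulation genes other than THBD changed in both directions with D11: 5 of 15 rose and 3 fell. PLAT, tissue plasminogen activator, was at 532 to 609 TPM in the controls, 1038 TPM with G1 and 2691 TPM with D11, and PLAU, urokinase, at 25 to 34.2, 29 and 172 TPM. PLAUR, the urokinase receptor, and the inhibitor SERPINE2 also rose, as did ANXA2, a receptor for plasminogen activation. VWF, von Willebrand factor, fell from 53.6 to 69.9 TPM in the controls to 16.0 TPM with D11 (48.3 with G1; log2 difference -1.92 ± 0.49, adjusted p = 0.00938), and F3 (tissue factor) and PROS1 (protein S) fell with it.

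Among the ADAMTS proteases and versican genes 3 of 8 rose and 2 fell. ADAMTS1 was at 16.6 to 23.8 TPM in the controls, 47.1 TPM with G1 and 201 TPM with D11 (log2 difference 3.25 ± 0.39, adjusted p = 1.91e-05). It lay outside the controls with each guide, unlike ADAMTS4 above, but was not called with G1. ADAMTSL1 rose from 3.43 to 4.22 TPM to 9.94 TPM and the link protein HAPLN3 fell from 21.8 to 30.2 TPM to 11.1 TPM. VCAN, versican itself, is listed at 0 in all 6 libraries, which may be a failed estimate.

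Growth factor and sprouting genes divided, with 4 of 16 higher and 4 lower. ESM1, a tip cell proteoglycan, was at 7.63 to 13.9, 23.5 and 107 TPM, and VEGFC, the lymphatic growth factor, at 3.06 to 5.04, 5.24 and 35.3 TPM. The co-receptor gene NRP1 was at 248 to 293 TPM in the controls, 189 with G1 and 63.1 with D11 (log2 difference -2.08 ± 0.12 for D11, adjusted p = 6.53e-09). PDGFB, which recruits pericytes, was at 79.9 to 126, 86.5 and 17.8 TPM, and KDR, the main VEGF receptor, at 76.5 to 94.1, 60.1 and 42.7 TPM. FLT1, the decoy receptor, rose to 51.6 TPM from 30.7 to 35.2.

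Of 13 junction genes 5 fell with D11 and 1 rose, with a median of -0.36. CDH5, VE-cadherin, was at 345, 378, 373 and 358 TPM in the controls, 294 TPM with G1 and 255 TPM with D11, below every control with either guide (log2 difference -0.51 ± 0.17 for D11, adjusted p = 0.0394). CTNND1, the p120 catenin that holds VE-cadherin at the surface, fell by 0.85 (adjusted p = 4.15e-05), and PECAM1, ESAM and TJP1 fell as well. After rescaling by the median of ratios 2 of these 5 stayed lower, and CDH5 and PECAM1 had an adjusted p of 0.106 each; with 1 control left out 2 to 4 fell, 2 of them without D8. The CDH5 call was lost without D2, D8 or F4 (adjusted p = 0.054 to 0.0677) and that of PECAM1 without B6 or D8 (0.0527 to 0.0596).

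Of 19 endothelial identity genes 5 rose and 7 fell with D11, and 7 rose and 6 fell after rescaling by the median of ratios. MMRN1 (multimerin) was at 124 to 182, 142 and 36.6 TPM and SOX17, an arterial transcription factor, at 27.3 to 29.8, 22.1 and 8.87 TPM. CD34 was higher, at 27.2 TPM against 9.17 to 14.2 in the controls and 22.5 with G1. EMCN (endomucin) was at 2.59 to 9.45, 4.87 and 1.09 TPM. The CD34 call was lost without B6, D8 or F4 (adjusted p = 0.0585 to 0.0701) and that of EMCN without D2 (0.0538).

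In BMP and TGF-β signalling 3 of 14 genes rose and 4 fell with D11. The inhibitors of differentiation, which are SMAD targets, moved apart: ID1 was at 73.8 to 92.5, 133 and 185 TPM, and ID3 at 37.0 to 46.6, 23.6 and 10.4 TPM. BMP2 rose from 1.99 to 3.27 TPM to 11.1 TPM, and TGFBR1, a TGF-β receptor, from 2.66 to 3.26 TPM to 7.96 TPM. The mesenchymal and matrix list had 2 higher and 1 lower of 12 (25% called, against 20.4% of all genes), with 4 of 12 positive and a median of -0.22. SNAI2 (Slug), a transcription factor of mesenchymal transition, was at 1.34, 1.29, 0.644 and 1.16 TPM in the controls, 3.37 TPM with G1 and 31.4 TPM with D11 (log2 difference 3.96 ± 0.33, adjusted p = 4.36e-07). S100A4 rose to 41.5 TPM from 7.77 to 12.7, and LOX, which crosslinks collagen, fell; the S100A4 call was lost without B6, D8 or F4 (adjusted p = 0.0591 to 0.0763) and the LOX call without D2, D8 or F4 (0.0525 to 0.0607).

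Of the actin and contractile genes 6 of 18 rose and 4 fell. RHOB was at 85.3 to 112 TPM in the controls, 102 with G1 and 321 with D11, and RHOC at 762 to 786, 830 and 1851 TPM. ACTA2, smooth muscle actin, fell from 84.4 to 91.5 TPM to 42.9 TPM with D11, and was at 90.0 TPM with G1. TAGLN was higher with G1 (62.4 TPM) than with D11 (41.7 TPM), both above 18.5 to 22.4 in the controls (adjusted p = 0.0381 for D11 and 0.111 for G1). Its D11 call was lost without B6, D8 or F4 (0.0546 to 0.0664).

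YAP targets rose in 4 of 11 cases and fell in none, with a median of 0.55. ANKRD1, a YAP and TEAD target, was at 21.3, 25.6, 33.6 and 35.5 TPM in the controls, 57.0 TPM with G1 and 308 TPM with D11 (log2 difference 3.39 ± 0.31, adjusted p = 1.15e-06). The receptor tyrosine kinase AXL was at 11.1 to 14, 21.9 and 51.9 TPM, and AMOTL2 and TEAD4 rose by less than 1 log2 unit. In the Notch pathway 3 of 13 rose (23.1% called, against 20.4% of all genes), 5 of 13 had a positive difference and the median was -0.14, near the -0.13 of all genes. The 3 were the ligand JAG1 (21.0 to 28.1, 21.2 and 57.4 TPM) and the targets HES4 (3.35 to 6.91, 5.79 and 21.2 TPM) and HEY1 (2.15 to 3.46, 3.02 and 7.90 TPM).

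Of the p53 target list 9 of 13 genes fell with D11 and none rose, with a median of -0.51, where 13.1% of all genes fell. TP53INP1 was at 24.6 to 32.6, 21.0 and 12 TPM, FDXR (ferredoxin reductase) at 65.3 to 76.9, 62.2 and 31.5 TPM, and MDM2, which degrades p53, at 32.6 to 44.1, 33.4 and 19.7 TPM. CDKN1A, the p21 inhibitor, was at 733 to 950, 752 and 707 TPM with no call. After rescaling by the median of ratios 7 of the 13 fell.

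Of 17 interferon response genes 7 fell with D11 (5 after rescaling by the median of ratios) and 1 rose, with a median of -0.60. OAS2, an antiviral RNA sensor, was at 24.4 to 36.5, 17.4 and 12.1 TPM, IFI44 at 17.6 to 20.7, 15.0 and 7.19 TPM, and OAS3 at 7.14 to 8.46, 6.02 and 2.45 TPM. IFI27, the gene that rose with D11, was at 352 to 389 TPM in the controls, 440 with G1 and 783 with D11. Of 15 inflammation and adhesion genes, ICAM1 rose to 228 TPM from 116 to 123 in the controls, and the chemokine CCL2 fell to 17.4 TPM from 72.9 to 105 (69.0 with G1). That is 13.3% called, against 20.4% of all genes.

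With G1 the cell cycle genes had a median of -0.21, against -0.08 for all genes, and 2 of 21 had a positive difference. With D11 their median was 0.81, and 2 of 21 passed as higher, MKI67 (5.96 TPM against 0.814 to 2.53) and AURKB (9.64 against 2.58 to 3.89). PCNA fell, so that 14.3% were called, against 20.4% of all genes. The count ran from 0 to 6 higher over the settings tried, and neither call held without B6, D2 or D8 (adjusted p = 0.0526 to 0.0777). Cholesterol synthesis genes had 3 of 15 higher, IDI1 and FDPS among them, or 6 with median-of-ratios scaling. In the unfolded protein list HERPUD1, DDIT3 and TRIB3 of 12 rose. In the NRF2 list PRDX1 and TXN of 12 rose by less than 1 log2 unit (neither with quantile normalisation), but 3 of the 12 had a positive difference and the median was -0.30; with G1 all 12 were positive and none passed the test. These counts of 2 and 3 stand beside 7.27% of all genes that rose. The calls for IDI1, DDIT3, TRIB3, TXN and EGLN3 were lost without D2 (adjusted p = 0.0592 to 0.0851), those for DDIT3, TRIB3 and TXN also without D8 (0.0527 to 0.0751), and DDIT3 and TXN without F4 (0.0655 and 0.0662). Of 13 hypoxia and glycolysis genes NDRG1 and LDHA rose and EGLN3 and BNIP3 fell. Of 9 immediate early genes, which respond to handling, DUSP1 rose to 318 TPM from 64.4 to 69.5 (95.5 with G1), FOSL1 and JUN rose and JUNB fell; their part in the other results was not tested.

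Markers of other cell types were looked at as whole lists. The 10 epithelial markers summed to 1210 to 1395 TPM in the controls, 2632 with G1 and 6820 with D11, a sum carried by KRT18; of the 5 in the fit KRT18 and KRT19 rose, and EPCAM and CDH1 stayed under 1 TPM. The 8 leukocyte markers summed to 47.4 to 60.2, 83.2 and 218 TPM, of which CD68, a lysosomal protein, held 217 TPM with D11 (1 of 4 in the fit rose), with PTPRC at 0.119 TPM. The 9 fibroblast and smooth muscle markers summed to 11.7 to 13.8, 6.47 and 8.49 TPM, and neither of the 2 in the fit was called. None of the 8 mitochondrially encoded genes was called. In pooled cells, fewer cells that express a gene and less RNA per cell cannot be told apart.

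**Figure D3:**
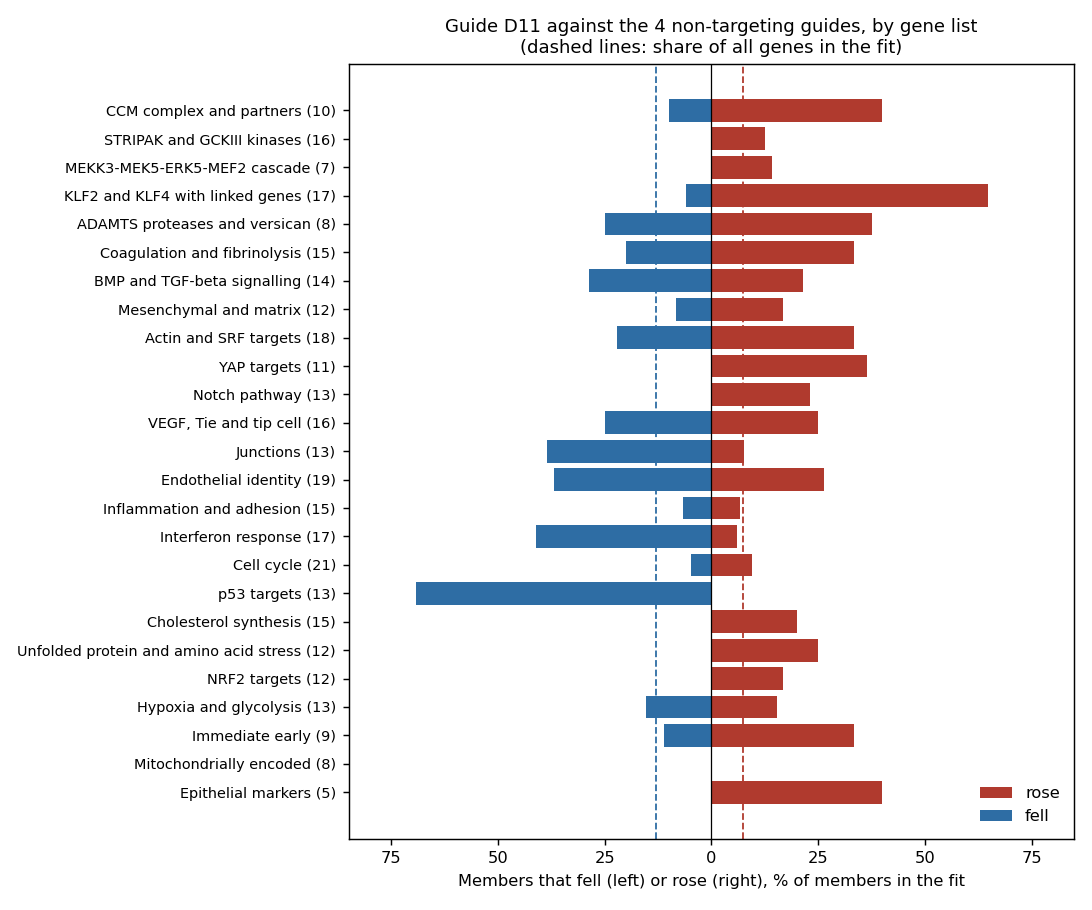
Share of each gene list that rose (red, right) or fell (blue, left) with guide D11 against the 4 non-targeting guides, as a percent of the members in the fit (their number in brackets), for lists with at least 5 members in the fit. Dashed lines give the share of all genes that rose (7.27%) or fell (13.1%); the KLF2 and KLF4 list has the longest red bar (11 of 17) and the p53 targets the longest blue bar (9 of 13).

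D11 was set directly against the 2 CCM2 libraries, which share no library with it, to show where D11 and the CCM2 guides gave different levels. The subunit lost, the depth of its knockdown and the single D11 guide cannot be told apart in this comparison. CCM2 was at 9.19 and 2.62 TPM with its own guides, and PDCD10 there stayed at 36.1 and 44.6 TPM. In all 659 genes differed (4.66%), 243 higher (1.72%) and 416 lower (2.94%) with D11. The list counts given below for this comparison are to be read beside these shares. Without CCM2 replicate 1 the count was 270, and with only these groups fitted, where 3 libraries remain, it was 0.

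KLF2, KLF4, PI16, THBD, NOS3 and HEG1 were not called in this comparison. KLF2 was at 690 and 723 TPM with the CCM2 guides against 754 with D11, a log2 difference of 0.10 (95% interval -1.33 to 1.52). KLF4 was at 77.5 and 82.1 against 117 TPM, PI16 at 418 and 474 against 630 TPM, THBD at 518 and 572 against 489 TPM, and HEG1 at 103 and 164 against 96.1 TPM. The intervals were -0.12 to 1.22 for KLF4, -0.42 to 1.42 for PI16, -1.19 to 0.89 for THBD and -0.90 to 0.04 for HEG1, so differences of these sizes are not excluded by the test. Among the 17 linked genes in the fit none was higher with D11 and 4 were lower, AQP1 and ADM among them: AQP1 was at 289 and 349 TPM with the CCM2 guides and 99.4 with D11 (adjusted p = 0.0294).

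Beside CCM2 itself, the genes higher with D11 than with CCM2 knockdown were led by FCRLA, FCRLB, TM4SF19 and STC1. STC1 was at 22.3 and 41.6 TPM with the CCM2 guides against 369 TPM (log2 difference 3.55 ± 0.36, adjusted p = 2.29e-05), and TM4SF19, a tetraspanin-like gene, at 1.63 and 6.83 against 62.1 TPM. FCRLB was at 3.12 and 12.7 TPM with the CCM2 guides, above the 0.993 to 1.48 TPM of the non-targeting libraries with each. The YAP target ANKRD1 was at 39.3 and 40.8 TPM against 308 TPM (log2 difference 2.91, adjusted p = 8.29e-05), and 3 of the 11 YAP targets were higher with D11. In the Notch list HES4 was at 2.63 and 2.05 against 21.2 TPM.

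Lower with D11 than with CCM2 knockdown, after VPS29 (90.2 and 93.1 TPM with the CCM2 guides), were NTS, WFDC1, RGS8 and PTPN5. NTS, neurotensin, was at 16.5 and 24.6 TPM with the CCM2 guides, 0.792 TPM with D11 and 0.906 to 2.48 TPM in the non-targeting libraries, so D11 lay below that range. PTPN5 was at 110 and 320 TPM against 23.1 TPM with D11 and at most 0.858 TPM in the non-targeting libraries (log2 difference -2.97 ± 0.40, adjusted p = 0.000331). WFDC1, a secreted protease inhibitor, was at 11.1 and 47.9 against 1.87 TPM, and RGS8, a regulator of G protein signalling, at 9.40 and 11.9 against 0.397 TPM. Of the 17 interferon genes 7 were lower with D11, among them OAS3 at 9.65 and 7.70 TPM with the CCM2 guides against 2.45 TPM, and CD34 was at 104 and 136 TPM against 27.2 TPM.

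**Figure D4:**
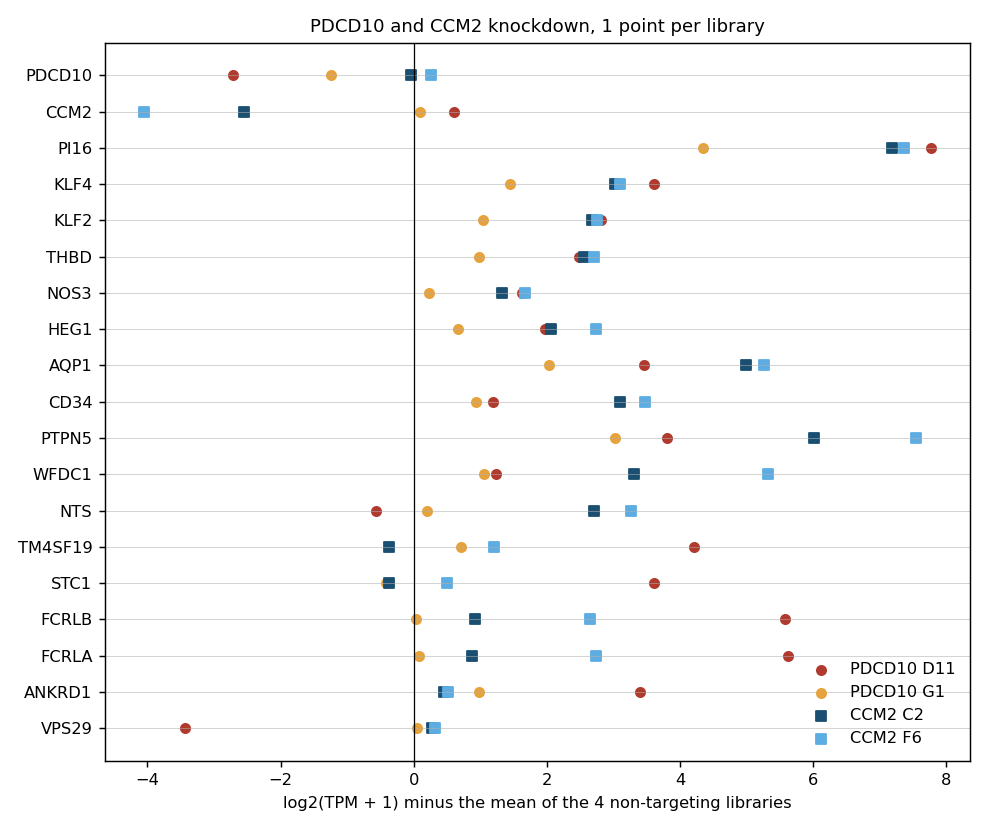
Difference from the mean of the 4 non-targeting libraries in log2(TPM + 1) for 19 genes, 1 point per library: red D11, orange G1, dark and light blue squares the CCM2 guides C2 and F6. From PI16 to HEG1 the D11 point and the squares all lie to the right of G1; for AQP1 to NTS the squares lie to the right of D11, and for TM4SF19 to ANKRD1 D11 lies to the right of the squares. VPS29 is low with D11 alone.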

How the data were processed

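The authors deposited 1 table of TPM for each gene symbol, per the file headers; the submitters' processing notes name Bowtie2, kallisto and hg19, without versions or roles. Poly-A selection and library construction used NEBNext reagents, per the labels' protocols. The fit used the 24 CRISPRi columns, with 35587 symbols. The 28 other columns, from TeloHAEC and Eahy926 cells with no guide in their labels, entered no comparison. Since TPM have a fixed sum, more of some abundant RNAs means less of the rest.

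Symbols with at least 1 TPM in 2 libraries (14143) were taken as log2(TPM + 1) and fitted once with limma 3.58.1 (R 4.3.3; trend, empirical Bayes), 12 groups with D11 and G1 apart, so that the spread came from the groups with 2 or more libraries (12 residual degrees of freedom). Apart from the controls, those groups hold 2 guides against 1 target, so the spread can include differences between guides in knockdown strength. KLF2, CCM2, CDH5, ITGB1BP1, TLNRD1 (labelled MESDC1), MAP3K3 and MAP2K5 were targets themselves. Tests were two-sided, with Benjamini-Hochberg adjustment over all genes. The average over both PDCD10 guides used 11 groups, with D11 and G1 fitted as replicates of 1 group. No 2 of the 6 libraries held the same values.

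The members, the 28 lists (391 genes, 337 in the fit) and the rule for named genes were chosen with earlier results of these data known. Named were PDCD10 and its neighbours, 13 pathway genes, the 10 largest rises and falls with D11 and the 5 largest in other comparisons (called, at least 5 TPM in the higher group, no overlap between groups), and up to 4 called members of each list. Some genes that the rule names are not reported here. In simulated data (14143 genes) 67, 67 and 66 genes were changed by 0.5, 1 and 2 log2 units, and the D11 test recovered 14.9%, 44.8% and 98.5% of them. For D11 against G1 the shares were 5.97%, 50.7% and 89.4%, for D11 against CCM2 14.9%, 59.7% and 92.4%. The changed genes all had a control mean log2(TPM + 1) of at least 1. D11 itself called 2882 genes, and recovery with that many changed genes was not simulated. Alternatives are in the closing section. Guides came from the labels and were matched with Python 3.11.15; figures used matplotlib 3.10.9.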

Additional observations from a re-analysis of the deposited data

Results flagged for a closer look

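In 5 of 121 named genes, 1 of the 4 non-targeting libraries stood far from the other 3 by Dixon's test, and chance gives about 1 in 20 such groups. PDCD10 was at 34.9 TPM in F4 against 37.7 to 38.2 in the others, STK25 at 264 TPM in D8 against 248 to 251, TPBGL at 11.8 TPM in D2 against 5.84 to 6.60, SOX17 at 27.3 TPM in D8 against 29.5 to 29.8 and NDRG1 at 158 TPM in D2 against 187 to 192.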

How the results depend on the processing

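No paired analysis was possible because each knockdown and non-targeting library carries a guide name of its own and no shared replicate number. D11 called 2698 to 3017 genes over the alternative settings and 2566 to 2742 with 1 control left out, against 2882. The share of higher genes was 35.7% and became 56.4% with the median of ratios and 45.0% with quantile normalisation; between D11 and G1 it was 46.6%, and 57.6% with the median of ratios. With no filter (25199 genes) G1 called 136 genes, the proportion test 244 and the average of both guides 537. With only the compared groups G1 called 5, the proportion test 0, both guides 4 and D11 against CCM2 0. The proportion test called 212 genes with PDCD10 loss on the linear scale. With 1 library left out G1 called 7 to 8 genes, the proportion test 9 to 15, both guides 9 to 2884, and D11 against CCM2 270 to 724. For D11 against G1 a fit of only these 2 libraries has no spread and was not run. In the fit of only G1 and the controls, PDCD10 and most of the genes that rose with G1 lost the call, and other genes entered. Over the alternatives, 1117 values of named genes with D11 kept their direction and side of the threshold, 73 lost the call, 5 gained it and 0 changed sign. The cause of these changes was not tested. Depth is unknown, and 1 library for each guide limits the precision throughout.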
